A study of Mus musculus with 6 samples.

Results

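The genes described here handle ATP and adenosine outside and inside the cell. There are 10 of them, Entpd1, Entpd4, Entpd4b, Entpd5, Nt5e, Ada, Pnp, Adk, Adora2a and P2rx7, among the 55536 genes of the count table. They were chosen by symbol for their part in nucleotide and adenosine handling, except that Entpd4 and Entpd4b were included because their counts were lower in the knockout libraries. The genotype values of these 2 genes are therefore a description and were given no test. All 10 genes passed the filter on low counts, by which 18690 genes were tested.

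Messenger RNA was sequenced from thymocytes, the T cells that mature in the mouse thymus, in steady state. The labels give 3 Il3ra-/- libraries, deficient in the interleukin-3 receptor alpha chain, and 3 Il3ra+/+ (wildtype) libraries, from 3 mice per genotype. The sources used here do not give strain, age, litter or the deleted piece of Il3ra. Sums of counts were 59135254, 82684219 and 72538282 in Il3ra-/- replicates 1 to 3, against 60601819, 55747682 and 66534218 in Il3ra+/+ replicates 1 to 3.

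Extracellular ATP acts as a danger signal through P2X and P2Y receptors. Ectonucleotidases on the cell surface cut it to AMP (Entpd1, known as CD39) and then to adenosine (Nt5e, known as CD73), and adenosine dampens T cells through the receptor encoded by Adora2a. Adenosine that enters the cell is deaminated by Ada or phosphorylated back to AMP by Adk. Pnp splits the inosine that Ada makes, and also guanosine. Loss of Ada or Pnp activity is toxic to thymocytes, where deoxynucleotides build up, and causes combined immunodeficiency in humans.

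The targeted gene showed no loss of counts, since Il3ra had 481, 673 and 514 counts in the libraries labelled Il3ra-/- and 465, 376 and 399 in those labelled Il3ra+/+. Whole-gene counts cannot check a deletion whose extent is unknown, so every direction below is that of the labelled libraries. Replicate 1 of each genotype was high in Xist, which silences an X chromosome, at 128236 counts in labelled knockout and 88078 in wildtype, against 8 to 57 in the other 4 libraries. The 10 T lineage markers were abundant in every library, with a summed level of 10485 to 11143 CPM (library-scaled counts, here with TMM factors from edgeR) in labelled knockout and 12120.4 to 13409.9 CPM in wildtype. Macrophage, dendritic cell and B cell markers had a wider range in labelled knockout than in wildtype. The 7 macrophage markers summed to 29.4, 59.2 and 69.2 CPM in labelled knockout replicates 1 to 3 and to 56.6, 39.0 and 39.5 CPM in wildtype. For the 6 dendritic cell markers these sums were 9.85, 23.5 and 40.4 CPM in labelled knockout and 15.0, 18.1 and 15.4 CPM in wildtype. Each of these markers had counts, with no gene of the 3 lists at 0 throughout.

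Entpd4 and Entpd4b encode one and the same intracellular nucleotidase, a nucleoside diphosphatase of the Golgi and lysosomal membranes. Entpd4 (ENSMUSG00000095463) lies on the plus strand of chromosome 14 of the mouse build GRCm38, from 69337174 to 69367270. Entpd4b (ENSMUSG00000022066) lies from 69555424 to 69585520 on the same strand, exactly 218250 bases further on. Il3ra is on the same chromosome, 55.0 Mb from Entpd4 and 55.2 Mb from Entpd4b. Each of the 5 transcript models of Entpd4b is identical, base for base, to a model of Entpd4, the longest being 3589 bases long, and the coding sequences of 1842 bases (stop codon included) are 100% identical. The first 90 coding bases of both, from GENCODE M21 transcripts, are shown here because no read from them can be assigned to one copy, with the start codon in capitals:
Entpd4: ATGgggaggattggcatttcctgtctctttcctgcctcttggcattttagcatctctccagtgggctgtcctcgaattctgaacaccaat
Entpd4b: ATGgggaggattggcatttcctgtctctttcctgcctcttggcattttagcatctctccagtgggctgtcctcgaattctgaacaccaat
The counts of the pair followed each other closely, with Entpd4b at 1.07, 1.09 and 1.09 times Entpd4 in labelled knockout replicates 1 to 3 and at 1.08, 1.14 and 1.12 times in wildtype. These are therefore not 2 independent measurements, and the sources used here do not say how the authors counted reads that map to both places.

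Counts of the pair were lower in the libraries labelled knockout, the difference for which it was chosen. The row of Entpd4 held 802, 1295 and 908 counts for labelled knockout, against 1824, 1552 and 1143 for wildtype. Entpd4b had 14.2, 16.9 and 14.2 CPM in labelled knockout, against 33.1, 30.5 and 19.6 CPM in wildtype. The genotypes did not overlap, but wildtype replicate 3 lay much nearer to the knockout libraries than to the other wildtype ones. The rows of the pair summed to 27.5, 32.3 and 27.3 CPM in labelled knockout and 63.7, 57.3 and 37.1 CPM in wildtype. A read counted at both copies would enter this sum more than once, so the sum may overstate the level. Entpd4 averaged 13.9 ± 1.32 CPM in labelled knockout and 25.0 ± 6.74 CPM in wildtype (SD, n = 3 each), and Entpd4b 15.1 ± 1.53 CPM in labelled knockout and 27.8 ± 7.16 CPM in wildtype. The log2 folds of labelled knockout over wildtype were -0.84 for Entpd4 and -0.88 for Entpd4b, 1.79-fold and 1.84-fold lower, and -0.86 for the summed copies. Over all 18690 tested genes, 9.38% were lower in labelled knockout with no overlap, and nothing is read from that share here because this contrast chose the pair. In bulk RNA, fewer cells of a type and less RNA per cell cannot be told apart, and other causes were not tested.

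**Figure D1:**
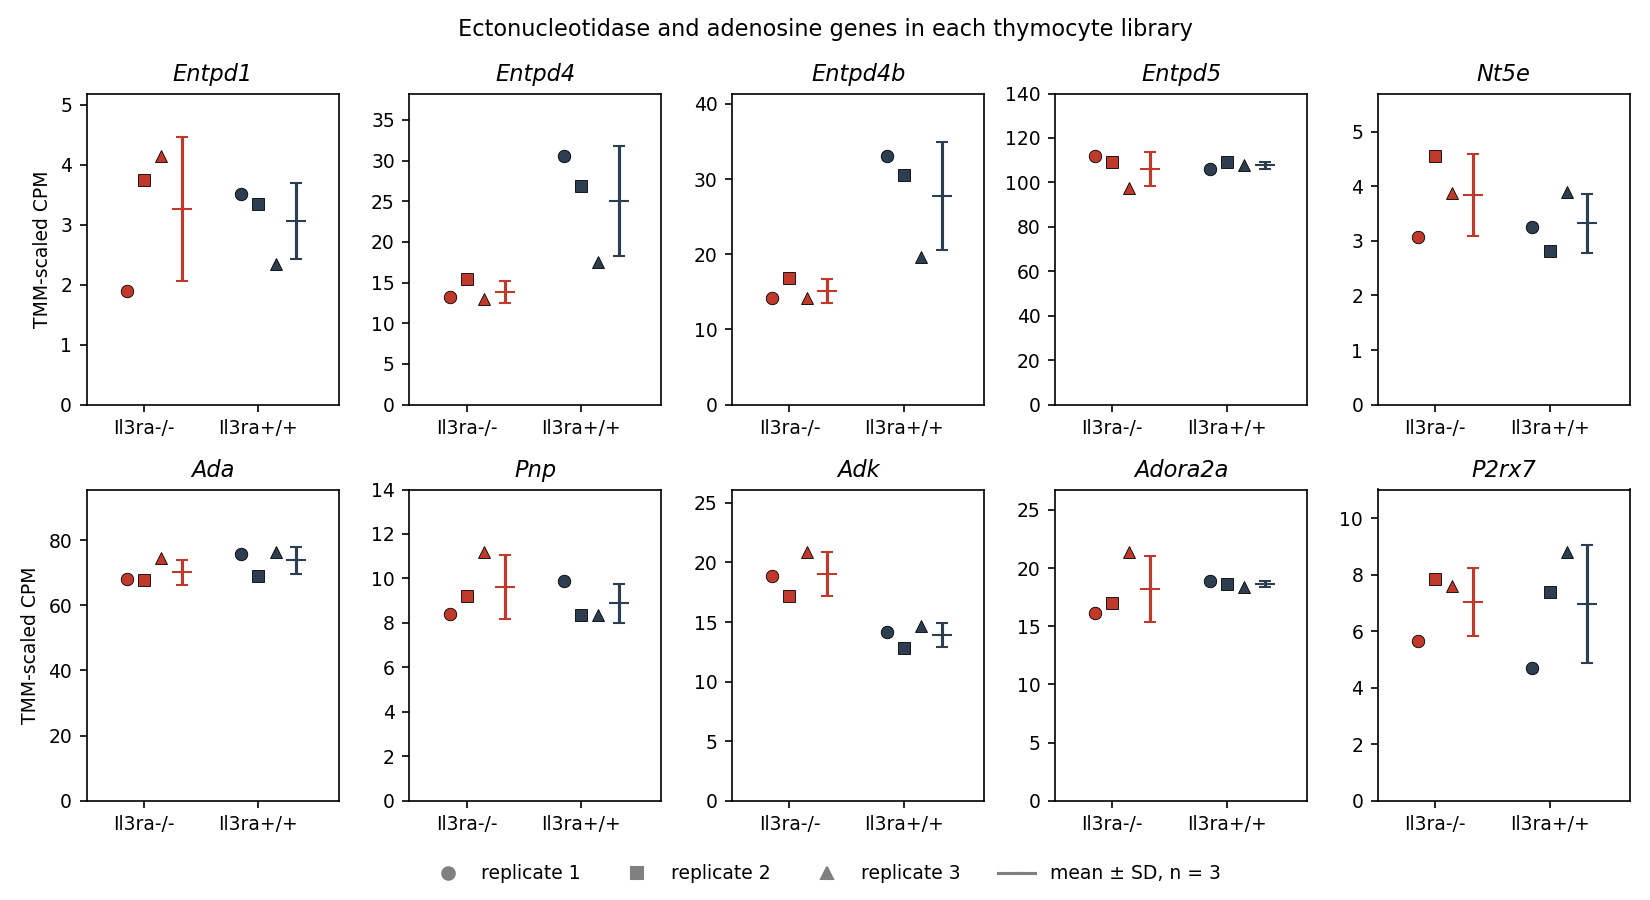
TMM-scaled CPM of the 10 genes (y axis of each panel, from 0) in each library of Il3ra-/- and Il3ra+/+ thymocytes (x axis); symbols mark the replicate number and the bars the mean ± SD of 3 libraries. Entpd4, Entpd4b and Adk are the panels in which the genotypes do not overlap.

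The gene models around the pair, several of them also duplicated, were lower in labelled knockout too. Within 200 kb of either copy 23 gene models were tested, the pair included, and 18 of them were lower without overlap and 0 higher, where 9.38% of all tested genes were lower without overlap. The 18 hold the pair, chosen for lower counts, and duplicated models with the same or nearly the same counts. Nothing is therefore read from the difference to that share. Rps2-ps5, the tested model farthest upstream, was fitted higher with overlap, at a log2 fold of 0.25. Of the 17 from Slc25a37 to Loxl2 and Gm37513, a stretch whose ends were set after the values were seen, all were fitted lower in labelled knockout and 16 had no overlap between the genotypes, the exception being Gm27179. Slc25a37, the mitochondrial iron carrier mitoferrin, had 198, 176 and 144 CPM in labelled knockout against 219.9, 305 and 247 CPM in wildtype. Gm16867, a model on the opposite strand that shares 2110 of the 8074 exon bases of Entpd4, had 0.892, 1.19 and 0.546 CPM in labelled knockout against 16.3, 20.9 and 9.48 CPM in wildtype. Loxl2, a lysyl oxidase of the matrix, had 7, 5 and 10 counts in labelled knockout and 93, 65 and 31 in wildtype. The log2 folds of Gm16867 and Loxl2, at -4.14 and -3.31, were larger in size than that of Entpd4. Relative to Entpd4 counts, Gm16867 stood at 0.0673, 0.0772 and 0.0419 in labelled knockout and at 0.533, 0.777 and 0.542 in wildtype.

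The models next to the pair are not separate measurements. Gm27221 lies antisense to Entpd4 and Gm27176 antisense to Entpd4b, each sharing 348 exon bases with it, and Gm27177 shares 1700 with Entpd4b. Gm38378 and its copy Gm37513 had identical counts in every library, 51, 54 and 30 in wildtype replicates 1 to 3 and 0 in all labelled knockout libraries, at least 52.7-fold lower when the knockout group is given 3 counts in all. The kit kept strand, but the sources used here do not give the strand setting of the counting, so reads of Entpd4 and of these antisense models cannot be told apart. Wildtype replicate 3 was the lowest wildtype library in 14 of the 17 models, where over all tested genes it was the lowest in 32.9%. Nothing is read from that difference, since the 17 hold the pair and duplicated models and were bounded after the values were seen. Past Loxl2, 5 tested genes had log2 folds between -0.19 and 0.20, with Chmp7 and Rhobtb2 lower without overlap. R3hcc1, the first of them, had 24.8, 23.8 and 24.4 CPM in labelled knockout and 25.6, 22.5 and 21.8 CPM in wildtype, with overlap.

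**Figure D2:**
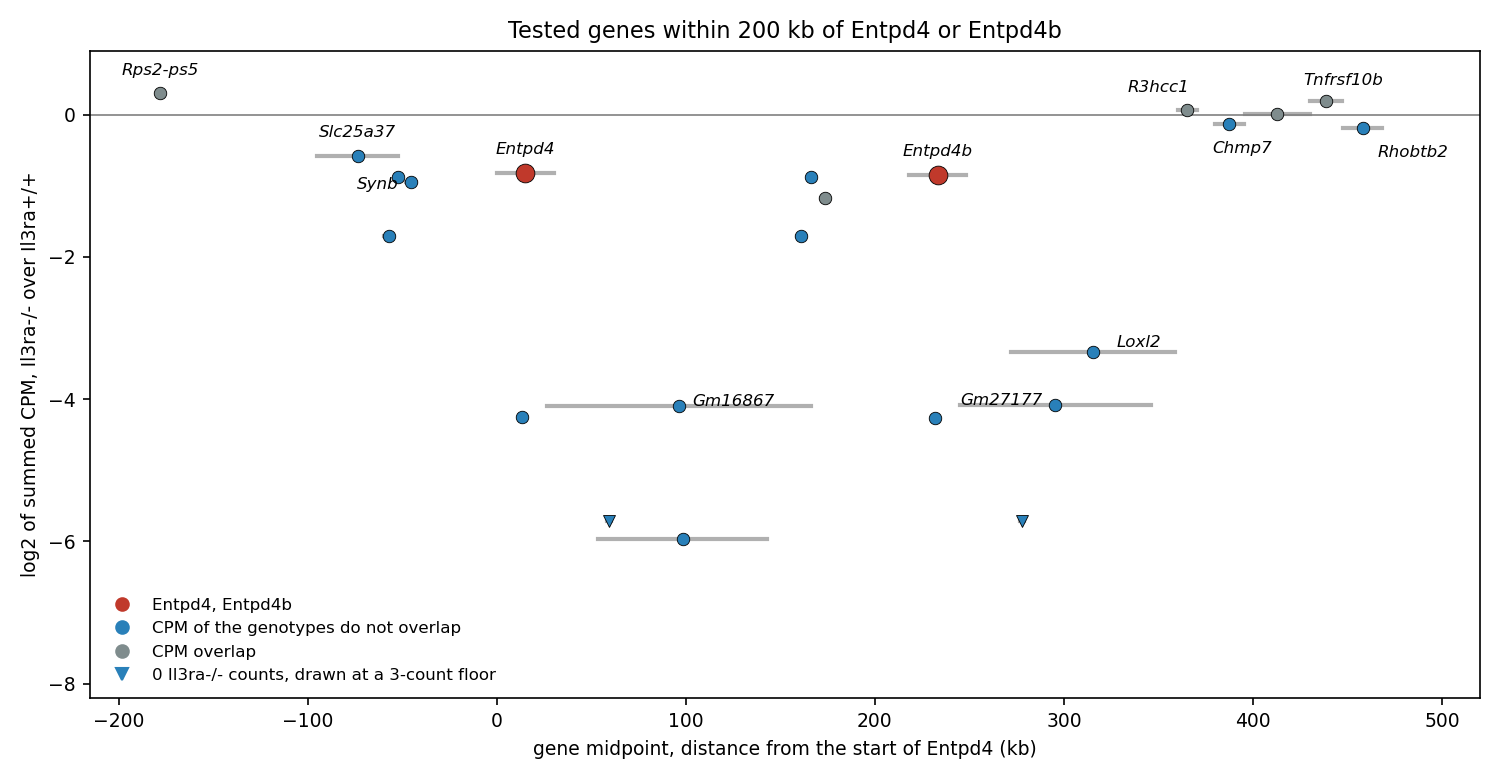
Log2 of the pooled CPM of Il3ra-/- libraries over that of Il3ra+/+ libraries (y axis) for the 23 tested gene models around Entpd4 and Entpd4b, against distance from the start of Entpd4 in kb (x axis, points at gene midpoints, grey bars the gene's extent). Pooled CPM is the summed counts over the summed scaled library sizes. Gm38378 and Gm37513, with 0 Il3ra-/- counts, are drawn with 3 counts in their place. Both members lie among 17 models that are lower in Il3ra-/-, between Slc25a37 at -95.3 kb and Loxl2 at 272 kb, and models beyond Loxl2 lie near 0.

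Among the other 8 genes, 0 were called by the quasi-likelihood test of edgeR over all genes, with adjusted p (Benjamini-Hochberg) of 0.163 to 0.985. Over all genes that test called 17 of 18690, or 0.0910% (0.0161% higher and 0.0749% lower in labelled knockout). At an unadjusted p under 0.05 there was 1 of the 8, Adk, where 14.6% of all genes were at that level (8.01% higher and 6.60% lower). DESeq2 called 1 of the 8, again Adk, where it called 4.54% of the genes it gave an adjusted p (2.89% higher). The 8 had a median log2 fold of 0.05 with 5 fitted higher and 3 lower, beside a median of 0.01 over all tested genes.

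Adk, adenosine kinase, which returns adenosine to AMP and keeps its level in the cell low, had the largest difference of the 8. Adk (ENSMUSG00000039197, chromosome 14, 21052574 to 21448569, plus strand, 6.70 Mb from Il3ra) had 18.9, 17.2 and 20.9 CPM in labelled knockout and 14.2, 12.8 and 14.7 CPM in wildtype. All 3 labelled knockout libraries lay above all wildtype ones, as was so for 10.9% of all tested genes. The means were 19.0 ± 1.86 CPM in labelled knockout and 13.9 ± 1.01 CPM in wildtype (SD, n = 3 each), a log2 fold of 0.45 with a standard error of 0.12, or 1.36-fold. This did not pass edgeR's test over all genes (Benjamini-Hochberg adjusted p = 0.163; unadjusted p = 0.00341). The adjusted p was 0.0280 by DESeq2's Wald test and 0.0480 by edgeR without the low-count filter, and spanned 0.0280 to 0.634 over the 15 alternatives. The 6 cell cycle markers did not overlap either, with a summed level of 3334, 2278 and 2843 CPM in labelled knockout and 1856, 1740.2 and 2276 CPM in wildtype, and neither did the 6 double-positive thymocyte markers, with 6661, 6289 and 6519 CPM in labelled knockout and 6826, 8146 and 7411 CPM in wildtype. The 7 double-negative thymocyte markers, of the stage before it, were all fitted higher, as were Adk and 51.2% of all tested genes. They summed to 371, 404 and 412 CPM in labelled knockout and 324, 358 and 367 CPM in wildtype, without overlap. Most of that sum was Notch1, at 274, 282 and 287 CPM in labelled knockout and 245, 274 and 269 CPM in wildtype. Notch1 had the same 274 CPM in labelled knockout replicate 1 and wildtype replicate 2, so it did not separate the genotypes. Kit, Il2ra, Cd44, Erg, Lyl1 and Hhex each overlapped. So did Mki67 of the cell cycle list, and Rag2, Dntt and Arpp21 of the double-positive list. The part of these lists in the Adk difference was not tested.

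Ada, adenosine deaminase, which turns adenosine and deoxyadenosine into inosine and deoxyinosine, is known for its very high activity in thymocytes. Ada (ENSMUSG00000017697, chromosome 2, 163726584 to 163750239, minus strand) had 68.0, 67.7 and 74.4 CPM in labelled knockout and 75.7, 69.1 and 76.4 CPM in wildtype. The genotypes overlapped, and the log2 fold of -0.07 had a standard error of 0.09 (edgeR, Benjamini-Hochberg adjusted p = 0.748). Read within each library, Ada had 3.60, 3.95 and 3.56 counts per count of Adk in labelled knockout and 5.31, 5.40 and 5.19 in wildtype. This ratio was chosen after the values were seen.

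Pnp, purine nucleoside phosphorylase, acts after Ada. Pnp (ENSMUSG00000115338, chromosome 14, 50931082 to 50965237, plus strand) had 8.42, 9.22 and 11.2 CPM in labelled knockout and 9.89, 8.36 and 8.37 CPM in wildtype. The genotypes overlapped, with a log2 fold of 0.12 and a standard error of 0.15 (edgeR, Benjamini-Hochberg adjusted p = 0.765). The annotated extent of Pnp spans its paralog Pnp2, and their coding sequences are 92.8% identical with a longest shared run of 292 bases. The alignment also holds gaps, since the coding sequences are 870 and 918 bases long. The gap-free stretch of 90 coding bases in which they differ most is shown because reads over it can tell them apart, with the 7 differing bases in capitals:
Pnp: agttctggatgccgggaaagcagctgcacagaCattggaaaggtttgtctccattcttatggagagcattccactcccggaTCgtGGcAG
Pnp2: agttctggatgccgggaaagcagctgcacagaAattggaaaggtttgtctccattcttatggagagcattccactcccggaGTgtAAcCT
Pnp and Pnp2 together had 16.7, 15.7 and 20.0 CPM in labelled knockout and 16.7, 13.9 and 16.9 CPM in wildtype. A further model, Gm49342, shares 718 of the 3979 exon bases of Pnp on the same strand and was listed at 0 in all 6 libraries, and how reads in the shared bases were treated was not given.

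Of the remaining nucleotidases, Entpd5, which hydrolyses UDP in the endoplasmic reticulum and so serves glycoprotein folding, had a narrow range. Entpd5 (ENSMUSG00000021236, chromosome 12, 84373857 to 84409029, minus strand) had 112, 109 and 97.6 CPM in labelled knockout and 106, 109 and 108 CPM in wildtype, a log2 fold of -0.02 with a standard error of 0.09 (edgeR, Benjamini-Hochberg adjusted p = 0.944). The genotypes overlapped, and the lowest library was labelled knockout replicate 3. Per length, its level was above those of the Entpd relatives measured here.

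The ectoenzymes that make adenosine at the cell surface, Entpd1 and Nt5e, both known on regulatory T cells, had low levels. Entpd1 (ENSMUSG00000048120, chromosome 19, 40612366 to 40741602, plus strand) had 1.90, 3.74 and 4.15 CPM in labelled knockout and 3.52, 3.34 and 2.34 CPM in wildtype. Labelled knockout held both the lowest and the highest library, with a coefficient of variation of 36.8% against 20.7% in wildtype. The log2 fold was 0.09 with a standard error of 0.29 (edgeR, Benjamini-Hochberg adjusted p = 0.916), and it turned to -0.11 without labelled knockout replicate 3. Labelled knockout replicate 1, the lowest in Entpd1, was also the lowest of all libraries in the summed macrophage, dendritic cell and B cell markers. Labelled knockout replicate 3 was the highest in each. The 6 B cell markers summed to 26.7, 46.1 and 54.7 CPM in labelled knockout and 46.4, 38.8 and 45.3 CPM in wildtype. Wildtype replicate 1, the highest of wildtype in Entpd1, was highest of wildtype in the macrophage and B cell sums and lowest in the dendritic cell sum. The part of these markers in the Entpd1 values was not tested. Nt5e (ENSMUSG00000032420, chromosome 9, 88327197 to 88372092, plus strand) had 3.07, 4.56 and 3.88 CPM in labelled knockout and 3.25, 2.82 and 3.89 CPM in wildtype. These overlapped, with a log2 fold of 0.21 and a standard error of 0.21 (edgeR, Benjamini-Hochberg adjusted p = 0.693). The 6 regulatory T cell markers overlapped too, with summed levels of 176, 189 and 163 CPM in labelled knockout and 133, 169 and 181 CPM in wildtype.

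The receptors Adora2a and P2rx7 had log2 folds smaller than their standard errors. Adora2a (ENSMUSG00000020178, chromosome 10, 75316877 to 75334784, plus strand), whose product raises cyclic AMP on binding adenosine, had 16.1, 17.0 and 21.4 CPM in labelled knockout and 18.9, 18.6 and 18.4 CPM in wildtype. The wildtype libraries lay close together and labelled knockout replicates fell on both sides of them, with a log2 fold of -0.04 and a standard error of 0.13 (edgeR, Benjamini-Hochberg adjusted p = 0.925). P2rx7 (ENSMUSG00000029468, chromosome 5, 122643911 to 122691432, plus strand), an ATP-gated channel that can kill T cells when ATP is high, had 5.65, 7.85 and 7.59 CPM in labelled knockout and 4.71, 7.39 and 8.81 CPM in wildtype. Replicate 1, the Xist-high library, was the lowest of each genotype, and the log2 fold of 0.01 with a standard error of 0.23 (edgeR, Benjamini-Hochberg adjusted p = 0.985) turned to -0.07 without both replicates 1.

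Per length, Ada had the highest level of the 10 genes. In CPM per kilobase of merged exons Ada reached 35.0 ± 1.90 in labelled knockout and 36.8 ± 2.01 in wildtype (SD, n = 3 each). Entpd5 followed at 17.6 ± 1.28 in labelled knockout and 17.8 ± 0.234 in wildtype, and Adora2a at 5.93 ± 0.922 in labelled knockout and 6.09 ± 0.0925 in wildtype. In wildtype the next were Entpd4b, Entpd4 and Pnp, at 3.44, 3.09 and 2.23, each overlapping with its neighbour in this order. Adk at 1.63 ± 0.119 and P2rx7 at 1.17 ± 0.348 came after them in wildtype without overlap. In labelled knockout the order differed in the middle, where Pnp at 2.42 and Adk at 2.23 stood above Entpd4b at 1.87 and Entpd4 at 1.72. Entpd1 at 0.585 ± 0.215 in labelled knockout and 0.550 ± 0.114 in wildtype and Nt5e at 0.446 ± 0.0868 in labelled knockout and 0.386 ± 0.0626 in wildtype were the lowest and overlapped. The order depends on the length used, and per kilobase of coding sequence Entpd5 stood above Ada, at 78.4 against 66.3 in labelled knockout and 79.5 against 69.8 in wildtype.

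**Figure D3:**
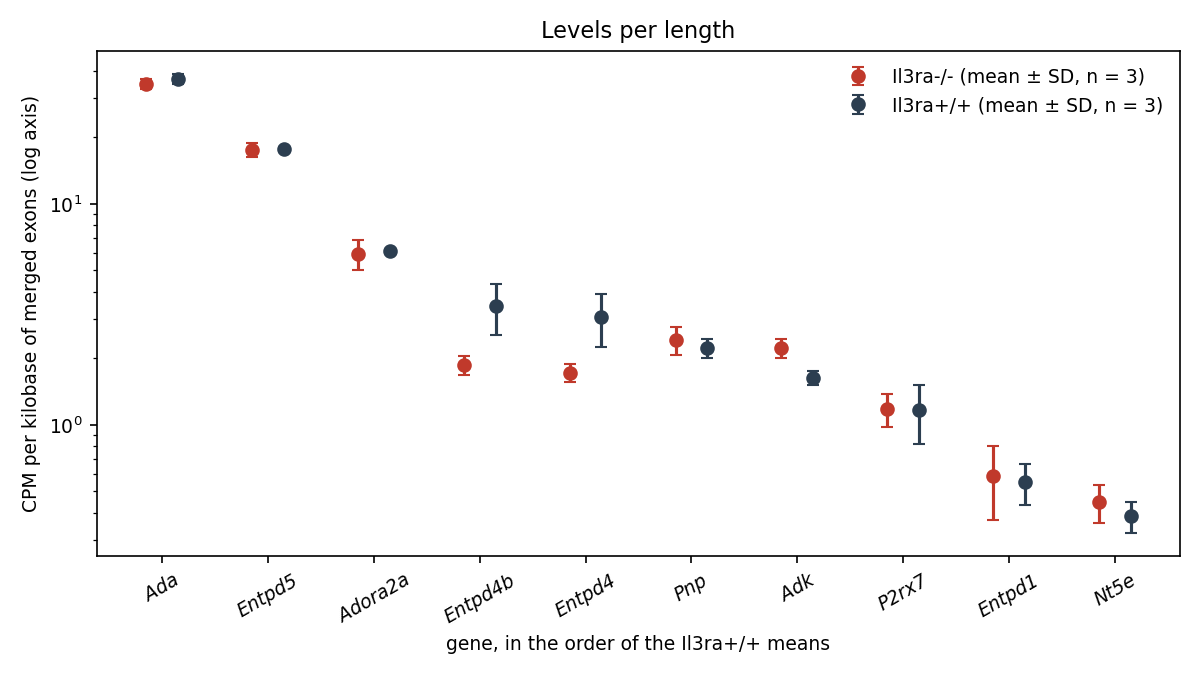
CPM per kilobase of merged exons (y axis, log scale) of the 10 genes (x axis) in Il3ra-/- and Il3ra+/+ libraries; points are means of 3 libraries and bars the SD. Ada and Entpd5 stand above the rest in both genotypes, and Entpd1 and Nt5e are lowest.

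Other genes of ATP and adenosine handling were taken from 6 lists with 70 genes, of which 53 were tested. None passed edgeR's test over all genes, against 0.0910% of all genes. At an unadjusted p under 0.05, 5 were higher and 4 lower, beside 8.01% higher and 6.60% lower over all tested genes. DESeq2 called 0, where it called 4.54% of the genes it gave an adjusted p. Of the 53, 11 (20.8%) did not overlap between the genotypes, where 20.3% of all tested genes did not. The median log2 fold was 0.07 with 69.8% fitted higher, beside 0.01 and 51.2% over all tested genes.

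Purine salvage enzymes had 16 of 20 tested genes fitted higher, with a median log2 fold of 0.12. Hprt, which recovers hypoxanthine and guanine, had 67.7, 58.2 and 71.8 CPM in labelled knockout and 50.7, 48.3 and 55.1 CPM in wildtype, without overlap (fold 1.28; edgeR, Benjamini-Hochberg adjusted p = 0.183). Ak4, a mitochondrial adenylate kinase, was low at 1.35 ± 0.299 CPM in labelled knockout and 0.775 ± 0.181 CPM in wildtype, and Ahcy, which releases adenosine from S-adenosylhomocysteine, had 104 ± 16.5 CPM in labelled knockout and 85.0 ± 13.1 CPM in wildtype (SD, n = 3 each). Dck, the deoxycytidine kinase that also phosphorylates deoxyadenosine, was the highest of the list per length and had 263 ± 11.2 CPM in labelled knockout and 262 ± 18.9 CPM in wildtype. None of the 20 passed edgeR's test.

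The carriers of nucleosides across the plasma membrane differed in direction. Slc29a1, the equilibrative transporter ENT1, had 90.4, 84.6 and 103 CPM in labelled knockout and 82.3, 75.6 and 72.5 CPM in wildtype. Slc28a2, a sodium-coupled purine nucleoside transporter, had 86.6, 84.5 and 80.7 CPM in labelled knockout and 97.5, 113 and 88.3 CPM in wildtype. Neither overlapped between the genotypes, at folds of 1.21 and 0.844, and neither passed edgeR's test over all genes (Benjamini-Hochberg adjusted p = 0.263 and 0.307). Slc29a3, a lysosomal nucleoside transporter, also had no overlap, at 61.4 ± 0.857 CPM in labelled knockout and 65.3 ± 0.925 CPM in wildtype.

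In the list of ATP and nucleotide receptors and release channels, 9 of 12 tested genes were fitted higher and 0 passed. P2rx1, an ATP-gated channel, had 36.9, 45.8 and 44.8 CPM in labelled knockout and 62.8, 61.6 and 44.9 CPM in wildtype, with wildtype replicate 3 inside the range of labelled knockout (fold 0.753; edgeR, Benjamini-Hochberg adjusted p = 0.231). Without the low-count filter P2rx1 passed edgeR's test (adjusted p = 0.0181). Panx1, the pannexin channel that releases ATP, had 36.8, 39.0 and 37.1 CPM in labelled knockout and 45.8, 43.2 and 47.0 CPM in wildtype, without overlap (fold 0.830; edgeR, Benjamini-Hochberg adjusted p = 0.226). P2rx2 had 10, 14 and 16 counts in labelled knockout and 6, 3 and 1 in wildtype. P2ry10 was the highest of the list per length, at 123 ± 6.64 CPM in labelled knockout and 132 ± 10.4 CPM in wildtype. It was listed by its P2Y family name and is not shown here to bind ATP.

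The further ectoenzymes, intracellular nucleotidases and adenosine receptors had 0 calls among 10, 5 and 1 tested genes. Entpd7, an intracellular relative of Entpd4, had 13.1, 11.6 and 11.8 CPM in labelled knockout and 13.2, 16.4 and 15.0 CPM in wildtype (fold 0.820; edgeR, Benjamini-Hochberg adjusted p = 0.329). Cant1, a calcium-activated nucleotidase of the Golgi, had 85.4 ± 1.88 CPM in labelled knockout and 95.8 ± 6.16 CPM in wildtype. Enpp1, which cuts ATP to AMP and pyrophosphate, was low at 1.57 ± 0.394 CPM in labelled knockout and 1.20 ± 0.0498 CPM in wildtype. Entpd2, Entpd3 and Entpd8 did not pass the filter, with at most 12 counts in any library. Of the cytosolic 5'-nucleotidases, Nt5c2 had 84.8 ± 1.91 CPM in labelled knockout and 77.0 ± 1.51 CPM in wildtype, with no overlap. Nt5c had 50.9 ± 1.33 CPM in labelled knockout and 55.8 ± 6.71 CPM in wildtype, and Nt5c3 22.4 ± 2.45 CPM in labelled knockout and 21.4 ± 1.56 CPM in wildtype. Adora3 had 5 to 15 counts in labelled knockout and 7 to 11 in wildtype, while Adora1 and Adora2b did not pass the filter, which left Adora2a as the adenosine receptor with a clear level.

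**Figure D4:**
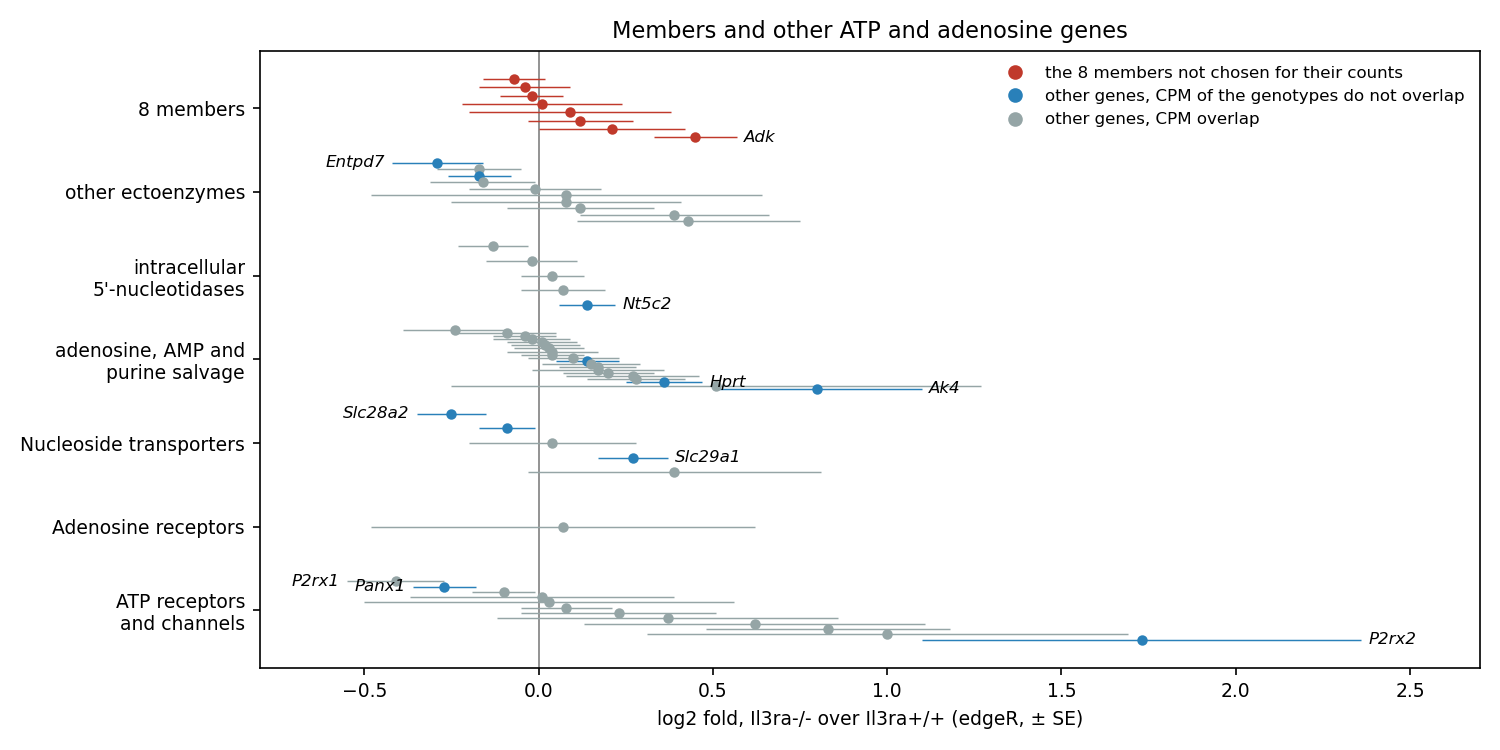
Log2 fold of Il3ra-/- over Il3ra+/+ (x axis, bars ± SE from edgeR) of the 8 members not chosen for their counts and of the 53 other tested genes, by list (y axis). Adk is the member farthest from 0 at 0.45, and P2rx2, with at most 16 counts a library, is the other gene with the largest fold.

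Profiles over the 6 libraries were compared by Pearson's r of log2 CPM, as a description. The other genes compared had a mean of at least 5 CPM and no clone name (9471 for Entpd4, 9472 for Entpd1). Models named by a Gm number, such as Gm16867 beside Entpd4, were thus left out. The genotype contrast that chose Entpd4 is part of its profile. Besides its own copy, the genes most like Entpd4 were Abcf3 (r = 0.998), Krtcap3 (0.995), Abcg1 (0.994) and Slc26a6 (0.993), all on other chromosomes. Abcf3, an ATP-binding cassette protein, spanned only 44.3 to 46.2 CPM in labelled knockout and 47.7 to 53.9 CPM in wildtype, a far smaller difference. Entpd1, the member with the widest range of the other 8, was most like Tmem138 (0.995), Pip4p2 (0.982) and Il2rb (0.978), the beta chain of the interleukin-2 receptor, which had 20.6, 33.1 and 37.5 CPM in labelled knockout and 31.2, 29.0 and 25.6 CPM in wildtype. These values were given no test.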

How the data were processed

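RNA was isolated with the NucleoSpin RNA kit and libraries were built with the TruSeq Stranded mRNA kit, per the labels' protocols. The submitters' processing notes name STAR 2.5.4b, featureCounts and GRCm38. The sources used here do not state the annotation release, the strand setting or how multi-mapped reads were treated. The authors deposited raw counts per gene, 1 column per library, without normalisation. All 55536 identifiers matched GENCODE M21 (GRCm38), which gave symbols, positions, exon lengths and transcript sequences.

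Genes were filtered with filterByExpr (18690 left), scaled by TMM and tested with edgeR 4.0.16 (glmQLFit with robust fitting, glmQLFTest, no covariate; R 4.3.3), with Benjamini-Hochberg adjustment over all tested genes and a threshold of 0.05. Coding sequences were aligned with Biopython 1.88. The fit was tested on simulated data. The limit that 0 counts allow in a library is 3 counts (0.0357 to 0.0519 CPM), for counting error only. P-values measure the spread between the libraries of 3 mice per genotype, and no batch is named. Alternatives were DESeq2 1.42.0, limma-voom (limma 3.58.1), other scalings and filters, a replicate block, left-out libraries, a covariate for the Xist-high libraries, summed copies and coding length. Members, lists and tests were chosen with earlier results of these data known. All members were named, with some of the tested neighbours within 200 kb of Entpd4 or Entpd4b and some of the genes closest in profile. Which neighbours to name was chosen with their values known. Per list, the 3 tested genes of smallest unadjusted p and the highest per length were named. Art2a had no row. Entpd2, Entpd3, Entpd8, Gm49342 and P2ry12 were named after their values were seen.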

Additional observations from a re-analysis of the deposited data

How the results depend on the processing

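Of 228 values under an alternative, 12 log2 folds changed sign, 2 came to pass the threshold (both Adk), and 20 counts moved by over 1.5 times or away from 0. Entpd4 and Entpd4b stayed lower in labelled knockout in every alternative, with log2 folds of -1.05 to -0.64 and -1.07 to -0.69. Calls among the 8 members numbered 1 (Adk) by DESeq2 and 1 (Adk) without the low-count filter, against 0. Calls in the lists moved to 1 lower without the filter (P2rx1) and 1 higher without both replicates 1 (P2ry12, adjusted p = 0.0469). Calls over all genes, 3 higher and 14 lower, became 383 and 219 by DESeq2 and 531 and 309 without the filter. They were 9 lower with 1 CPM in 3 libraries, 1 and 8 with the replicate block, and 394 and 368 without both replicates 1. Leaving out 1 library gave 1 to 15 higher and 7 to 18 lower. Log2 folds near 0 changed sign with 1 library left out, over ranges of -0.11 to 0.37 for Entpd1, -0.06 to 0.04 for Entpd5, -0.01 to 0.21 for Pnp, -0.17 to 0.04 for Adora2a and -0.20 to 0.22 for P2rx7. Without both replicates 1, Adora2a came to 0.05 and P2rx7 to -0.07. None of these passed the threshold. In wildtype, the rank by level per length changed for 6 members with coding length in place of merged exons. The cause was not tested. Same-numbered libraries deviated with correlations of -0.11, 0.03 and -0.12, and different-numbered ones with -0.07 to 0.16. These values showed no pairing by number but cannot exclude one, and the block changed no call among the members.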
